A study of Mus musculus with 4514 samples.

Results

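Hepatocytes, the main cells of the liver, were profiled one by one after a treatment labelled Tef-KO, and the account here covers the cells of that treatment that carry the age label P12+40d. They were chosen by that label alone, which is borne by 10.3% of the 1226 cells processed with Smart-seq3, out of 4514 samples in the whole series. The P12+40d cells numbered 725 in 5 pools, of which 17.4% were labelled Tef-KO and 22.6% WT, the comparison pool. The other 3 pools of that age were labelled Nr2f2-KO (22.8% of the 725), Usf1-KO (8.69%, 63 cells) and Xbp1-KO (28.6%). All 5 pools came from mouse liver with the genotype Rosa-Cas9, a mouse line that carries the Cas9 nuclease at the Rosa locus. The label gives an age at postnatal day 12 plus 40 days, and the series tested transcription factors during hepatocyte maturation. The sources used here do not give the animal, the litter, the hour of collection or the feeding state of each cell, nor the guides, their delivery, the edited site, or whether the WT cells received a control treatment. The cells were picked singly into lysis buffer. Each treatment was therefore 1 pool of cells, and the pool labelled Tef-KO could not be tested against the WT pool.

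TEF, DBP and HLF are the PAR bZIP transcription factors, which bind a short DNA element called the D-box. They are output factors of the circadian clock, and their own transcription is driven in part by CLOCK and BMAL1 through the E-box. NFIL3 binds the same element as a repressor. In liver, PAR bZIP factors are linked to detoxification and, through acyl-CoA thioesterases that release fatty acids, to the nuclear receptor PPARA, whose known targets include the Cyp4a fatty acid hydroxylases.

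The D-box and the E-box were searched in the 300 bases around the starts of genes, in RefSeq promoter windows on build GRCm38.p6. The stretches shown here are the 250 bases before the start, 5′ to 3′ on the strand of the gene, for Tef, Per3, Ciart and Bhlhe41, which are 4 of the clock genes whose windows held a motif, and for Acsm3, the only gene at least 2-fold higher in the pool labelled Tef-KO whose window held a D-box. Capitals mark TTATGTAA (D-box) or CACGTG (E-box).
Tef, chr15:81802423-81802672, plus strand, E-box: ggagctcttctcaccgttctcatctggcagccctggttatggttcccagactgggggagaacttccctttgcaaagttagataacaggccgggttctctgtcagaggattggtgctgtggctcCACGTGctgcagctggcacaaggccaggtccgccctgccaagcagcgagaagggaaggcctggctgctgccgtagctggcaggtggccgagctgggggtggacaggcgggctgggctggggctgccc
Tef, chr15:81811164-81811413, plus strand, second start, E-box: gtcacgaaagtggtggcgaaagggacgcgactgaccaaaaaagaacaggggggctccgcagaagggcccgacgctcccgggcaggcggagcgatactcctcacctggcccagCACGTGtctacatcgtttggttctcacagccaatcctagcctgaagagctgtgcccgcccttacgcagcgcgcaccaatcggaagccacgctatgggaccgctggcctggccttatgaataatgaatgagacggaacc
Per3, chr4:151044666-151044915, minus strand, D-box: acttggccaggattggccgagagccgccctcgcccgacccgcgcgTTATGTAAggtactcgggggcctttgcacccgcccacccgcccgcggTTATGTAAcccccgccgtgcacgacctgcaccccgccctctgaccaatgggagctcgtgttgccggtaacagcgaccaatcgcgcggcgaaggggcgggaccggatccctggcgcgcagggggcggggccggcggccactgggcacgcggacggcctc
Ciart, chr3:95882229-95882478, minus strand, E-box: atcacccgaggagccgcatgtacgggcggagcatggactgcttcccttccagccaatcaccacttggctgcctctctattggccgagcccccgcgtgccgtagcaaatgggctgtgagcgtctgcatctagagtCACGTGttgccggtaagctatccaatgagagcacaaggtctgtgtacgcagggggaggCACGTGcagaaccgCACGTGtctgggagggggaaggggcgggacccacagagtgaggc
Bhlhe41, chr6:145865421-145865670, minus strand, E-box: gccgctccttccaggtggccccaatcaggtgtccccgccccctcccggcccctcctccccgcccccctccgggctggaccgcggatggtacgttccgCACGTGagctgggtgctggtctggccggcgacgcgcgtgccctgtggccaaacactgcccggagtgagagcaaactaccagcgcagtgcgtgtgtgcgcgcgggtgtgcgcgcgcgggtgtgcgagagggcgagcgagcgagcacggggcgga
Acsm3, chr7:119760673-119760922, plus strand, D-box: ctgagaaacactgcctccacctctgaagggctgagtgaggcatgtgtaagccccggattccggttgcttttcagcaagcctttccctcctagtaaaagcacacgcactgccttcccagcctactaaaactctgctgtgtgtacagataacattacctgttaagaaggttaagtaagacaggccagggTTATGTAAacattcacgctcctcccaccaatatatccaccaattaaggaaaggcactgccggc

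Both Tef starts carried 1 E-box, the Ciart stretch carried 3, and the Per3 stretch carried 2 D-boxes. The D-box was searched as TTATGTAA or TTACGTAA on both strands and was found in 1.06% of all 32851 windows and at 1.23% of the 27025 genes with a window. Of the genes at least 2-fold lower in the pool labelled Tef-KO than in the WT pool, 65.8% had a window, and 2 of these (2%) held the D-box, namely Ces1b and Prnp. Of the genes at least 2-fold higher, 71.1% had a window and 1 of these (0.885%) held it. The E-box CACGTG, which reads the same on both strands and was added to the search after the data were seen, was in the windows of 8.09% of all genes, 10 of the lower genes with a window (10%) and 12 of the higher ones (10.6%). Of the 14 measured clock genes with a window, 4 held an E-box (Bhlhe41, Ciart, Cry1 and Tef). A match is a description of these letters and not a site of binding. Enhancers and starts outside the table were not searched.

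Levels are CPM, the usual scaling of a gene's counts by the total count of its cell, averaged over the cells of a pool. Depth was similar, with a median of 791226 counts per cell in the pool labelled Tef-KO and 854077.5 in the WT pool. The lowest cell had 349113 and 245880 counts, and the medians of detected genes were 8419.5 and 9113.5. The hepatocyte markers summed to 138250 CPM in the pool labelled Tef-KO and to between 58724 and 125120 CPM in the other 4 pools. Markers of other liver cells were low: the 11 endothelial markers summed to 6.96 CPM against 10.7 in WT, the 13 measured Kupffer cell markers to 9.26 against 7.57, and the 9 cholangiocyte markers to 14.1 against 25.9. Krt19, Cldn7 and Cftr, which mark cholangiocytes, and Acta2, a stellate cell marker, were listed at 0 in all 5 pools. The lymphocyte and neutrophil markers summed to 0.476 CPM against 0.0476 in WT and 35.04 in the Usf1-KO pool, and the erythroid markers to 42.97 against 27.9. In the Usf1-KO pool the acute phase list took 26.8% of all counts, against 1.52% in the pool labelled Tef-KO and between 2.34% and 5.30% in the other pools.

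The pools were not uniform. Each cell label ends in a number whose meaning is not stated, and many genes changed level with that number inside a pool. To show this, a description chosen after the data were seen, the cells of each pool were divided into 4 blocks by label number, with 31 or 32 cells each for Tef-KO and 41 each for WT. In the WT pool, Saa1 averaged 19668, 563, 5295 and 9638 CPM over the blocks from the lowest to the highest numbers, and Mup9 averaged 213.8, 3798, 4988 and 5904 CPM. In the pool labelled Tef-KO, Cyp4a14 averaged 92.8 CPM in the first block and 939, 1097 and 1152 CPM in the others. The plot of single cells against label number shows the Saa1 levels in WT as bands with sharp borders. For Mup9, high and low WT cells were mixed, as in cell 43 (15029 CPM) and cell 44 (216.4 CPM). Whether the borders are animals, plates, collection hours or picking sessions was not tested, and a difference between the pools cannot be told apart from a difference between those units. Blocks were cut by cell count and not at these borders. In WT, Saa1 fell from 25217 CPM in cell 39 to 306.5 CPM in cell 40, inside the first block. It rose from 881.7 CPM in cell 95 to 11204 CPM in cell 96, inside the third block. Block means, and ratios against blocks, can therefore mix bands. Blocks are given below beside the genes on which a result turns. Among genes given below by pool means alone, the Tef-KO and WT blocks overlapped for Slc13a3, Saa2, Orm2, Lcn2, Crp, Mup20, Elovl3, Cyp2c69, Manf and Ifit3.

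**Figure D1:**
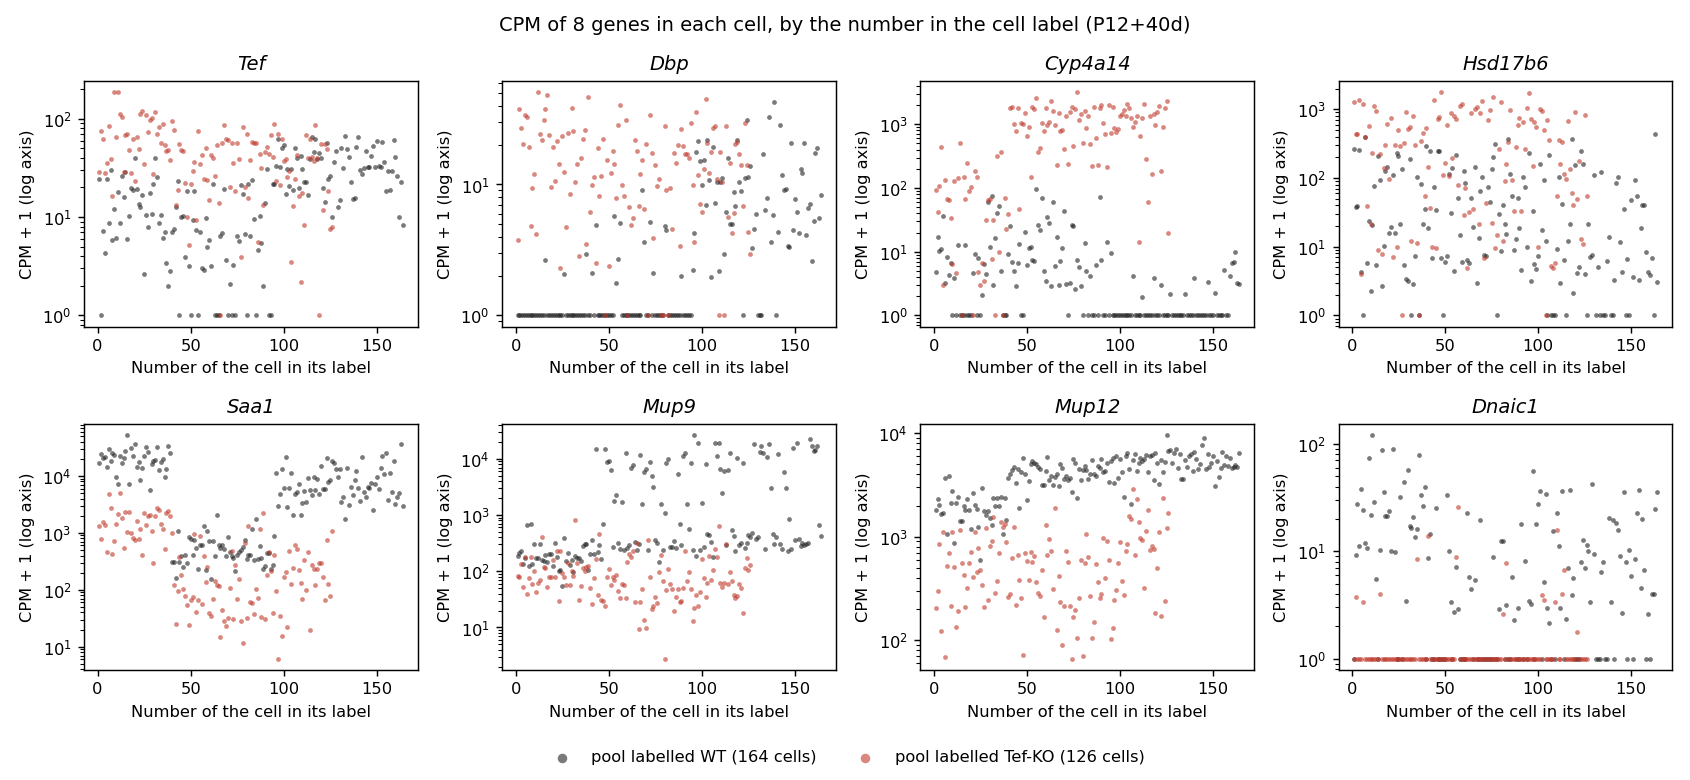
Each point is 1 cell of the pool labelled Tef-KO (red) or WT (black), with the number in its label on the x axis and the CPM plus 1 of one gene on a log y axis, for 8 genes. Saa1 and Mup9 change level within the WT pool and Cyp4a14 within the pool labelled Tef-KO, while Mup12 stays below the WT median of 4303 CPM in every Tef-KO cell.

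Among 6673 genes that reached 10 CPM and 25% of cells in the higher of the 2 pools, 2.28% were at least 2-fold lower in the pool labelled Tef-KO than in WT and 2.38% at least 2-fold higher, together 4.66%. Log2 ratios were computed on CPM + 1, and their median over the 6673 genes was 0.07. These shares turn on where the threshold lies: Ccrn4l (-1.005) and Pex16 (1.001) were just inside, Cyp2c70 (-0.995) and Pgam1 (0.998) just outside. In 67.8% of the lower genes all 4 Tef-KO blocks lay below all 4 WT blocks, as in 7.4% of all 6673 genes. In 78% of the higher genes they lay above, as in 14.5% of all. These were the contrast that chose the genes, so the shares are descriptions. Predicted genes and pseudogenes, counted but not named, made up 26 of the lower and 16 of the higher genes.

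Tef, on chr15:81802421-81826863 on the plus strand of GRCm38, did not have less mRNA in the cells labelled as its knockout. It averaged 46.7 CPM in the pool labelled Tef-KO, 19.99 in WT, 25.7 in Nr2f2-KO, 5.80 in Usf1-KO and 11.3 in Xbp1-KO. The level in the pool labelled Tef-KO was the highest of the 5, as for 33.5% of all 6673 genes compared between these pools, with a median over cells of 41.5 CPM against 17.2 in WT. After each cell was thinned to 200000 counts, 96.03% of Tef-KO cells had a Tef count (exact 95% interval 90.98% to 98.7%) against 79.3% in WT (72.3% to 85.2%), where unthinned shares were 98.4% and 91.5%. These intervals, here and below, take the cells of a pool as independent draws, which the bands by label number do not bear out, so they are too narrow for a comparison of treatments. The log2 ratio against WT was 1.19. By blocks the pool labelled Tef-KO ran from 31.7 to 71.7 CPM and WT from 6.62 to 32.95 CPM, so the ranges overlapped, and against the 2 blocks of higher WT label numbers alone the log2 ratio was 0.61. At the age label P60+14d, WT cells averaged 107.1 CPM, Nr2f2-KO cells 34.02 CPM and Usf1-KO cells 60.5 CPM. Counts per gene do not show the edited sequence, and an edited gene can still be transcribed, so this value does not check the label, and the pool is called by its label throughout.

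In a fit of the pool labelled Tef-KO against the 4 other P12+40d pools with edgeR's quasi-likelihood test, Tef differed by 1.51 on the log2 scale (SE 0.54, unadjusted p = 0.0296), with a Benjamini-Hochberg adjusted p of 0.793 (0.614 to 0.929 over the alternatives). That fit had 17124 genes and 1 pool on one side, and it called 0 genes lower and 0 higher. Without adjustment 558 genes (3.26%) were lower and 1.97% of the genes higher at p under 0.05. DESeq2 called 60 lower (0.406%) and 8 higher (0.0541%) of 14788. An exact permutation of 5 pools cannot go below p = 0.2. Every p-value here measures only the spread between these pools. Adjusted p-values of DESeq2 are given below only for genes that it called. Tef, Dbp, Cyp4a14, Cyp4a10, Saa1, Saa2 and Mup9 were not among those genes.

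The other PAR bZIP factors differed from one another. Dbp, the partner whose mRNA is among the strongest clock outputs in liver, averaged 14.8 CPM in the pool labelled Tef-KO, 4.23 in WT, 4.43 in Nr2f2-KO, 0.281 in Usf1-KO and 0.688 in Xbp1-KO, a log2 ratio of 1.60 against WT. Its Tef-KO blocks (12.4 to 19.9 CPM) lay above those of all 4 other pools. The nearest WT block was at 9.38 CPM, and the lowest at 0.141. Against the 2 blocks of higher WT label numbers alone the log2 ratio of Dbp was 0.83, under 2-fold. Hlf averaged 35.4 CPM against 38.2 in WT, a log2 ratio of -0.11, within the range of the other pools (19.4 to 46.7 CPM). It was 0.01 against the 2 blocks of lower WT label numbers. The competing repressor Nfil3 averaged 11.8 CPM in the pool labelled Tef-KO, 31.1 in WT, 16.4 in Nr2f2-KO, 36.9 in Usf1-KO and 29.8 in Xbp1-KO, a log2 ratio of -1.33. Its WT blocks ran from 43.6 CPM at the lowest numbers to 14.1 CPM at the highest, and the Tef-KO blocks from 4.76 to 15.7 CPM, so the ranges met, and against the 2 blocks of higher WT numbers the log2 ratio was -0.70.

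Clock genes stood on both sides of WT in the pool labelled Tef-KO, and the WT blocks themselves spanned much of the same distance. Of 18 measured clock genes, 2 were at least 2-fold lower and 6 higher, with a median log2 ratio of 0.57 beside 0.07 for all 6673 genes. Of all 6673 genes 2.28% were at least 2-fold lower and 2.38% higher. Nr1d1, the repressor REV-ERB alpha, averaged 35.4 CPM against 9.77 in WT, 24.8 in Nr2f2-KO, 0.952 in Usf1-KO and 4.09 in Xbp1-KO. Bhlhe41, a repressor that binds E-boxes, averaged 11.1 CPM against 2.57 in WT and at most 3.87 in the other pools, but its lowest Tef-KO block (5.30 CPM) was below the highest WT block (6.04 CPM). Usp2, a rhythmic deubiquitinase, averaged 31.6 CPM against 11.2 in WT and at most 9.11 in the other knockout pools. Its fitted difference from the 4 other pools was 1.90 (SE 0.36, edgeR adjusted p = 0.793, DESeq2 adjusted p = 0.0174), and the WT blocks reached 22.1 CPM where the Tef-KO blocks began at 16.9.

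Ciart, Per3 and Cry1 are added here after their values were seen. Ciart, a repressor of CLOCK and BMAL1, averaged 11.4 CPM against 4.24 in WT, with Tef-KO blocks of 6.63 to 19.8 CPM and WT blocks of 0.622 to 9.70 CPM. Per3 averaged 22.6 CPM against 11.5, a log2 ratio of 0.92, and its WT blocks were 0.612, 2.20, 18.1 and 25.0 CPM from the lowest to the highest label numbers. The Tef-KO blocks, 12.6 to 35.3 CPM, overlapped the 2 blocks of higher WT numbers and reached both below and above them. Cry1, a core repressor, averaged 5.79 CPM in the pool labelled Tef-KO, 14.1 in WT and 5.72 in Nr2f2-KO, and the WT block of the highest numbers was at 3.52 CPM. In the Usf1-KO pool 7 of the 18 clock genes were at least 2-fold below WT and 0 above it. The counts were 6 and 0 in the Xbp1-KO pool, and 1 and 1 in the Nr2f2-KO pool. Over all genes measured in each comparison, 5.77%, 0.789% and 1.64% were at least 2-fold lower and 2.08%, 0.864% and 2.02% higher, in the same order. Those genes were measured in each comparison by itself, while the 18 clock genes were those measured in the comparison of Tef-KO with WT. The 4 comparisons share the WT cells. The hour at which each pool was collected is not given, and its part in these levels was not tested.

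**Figure D2:**
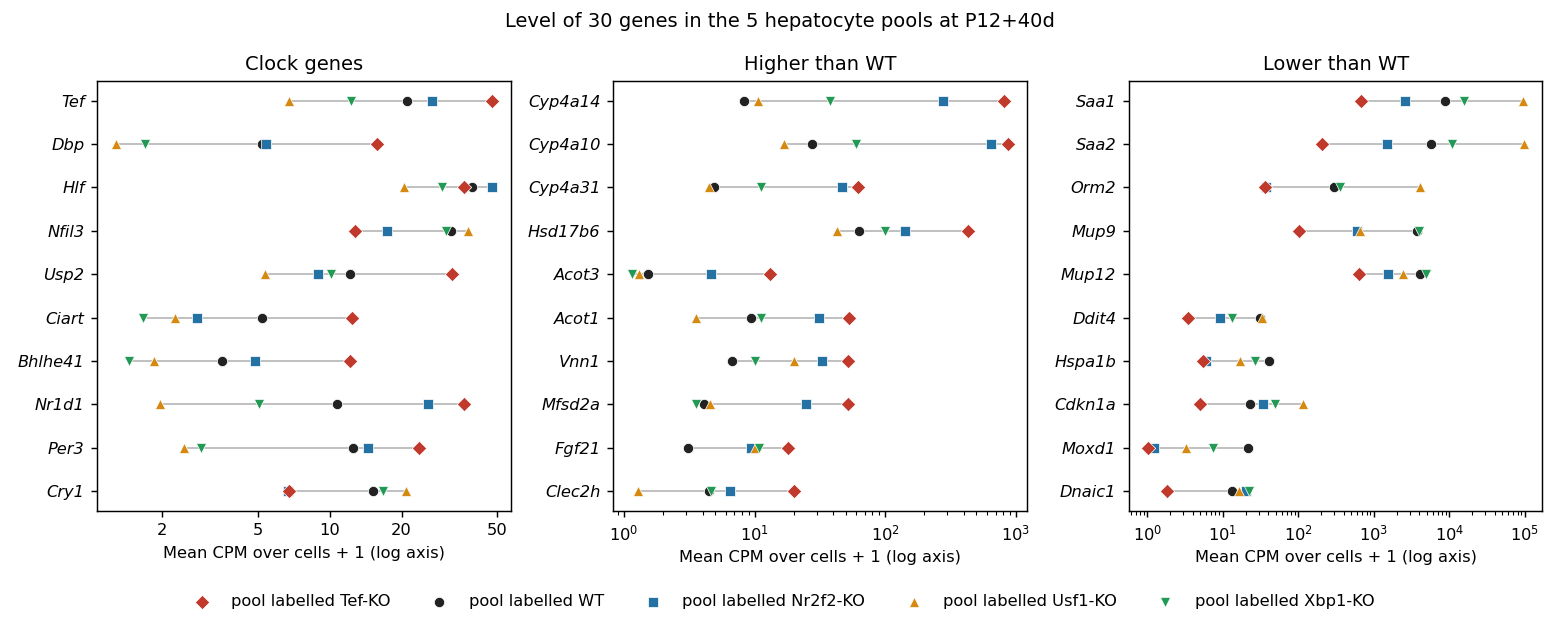
Mean CPM + 1 on a log axis of the named genes in each of the 5 P12+40d pools, with 1 symbol per pool. For Tef, Dbp and Usp2 the pool labelled Tef-KO is the highest of the 5, and for Saa2, Mup9 and Dnaic1 it is the lowest.

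Fatty acid omega-hydroxylases were higher, and Cyp4a14 had the largest log2 ratio in either direction on the CPM + 1 scale. With 0.1 CPM added in place of 1, Cyp4a14 was at 6.79 and Moxd1, described below, was farther from 0 at -7.47. Cyp4a14, on chr4:115486200-115496142, averaged 815 CPM in the pool labelled Tef-KO, 7.25 in WT, 276.2 in Nr2f2-KO, 9.69 in Usf1-KO and 36.6 in Xbp1-KO, a log2 ratio of 6.63 against WT. In 95 Tef-KO cells (75.4%) the level was above the highest WT cell (93.9 CPM). After thinning, 92.9% of cells had a count (86.9% to 96.7%) against 39.6% of WT cells (32.1% to 47.6%). The lowest Tef-KO block (92.8 CPM) lay above the highest WT block (14.5 CPM) but below the lowest Nr2f2-KO block of 177.1 CPM. In the edgeR fit against the 4 other pools, Cyp4a14 differed by 3.41 (SE 1.5, adjusted p = 0.793, 0.614 to 0.929 over the alternatives). Cyp4a10 averaged 868 CPM against 26.3 in WT, 646 in Nr2f2-KO, 15.7 in Usf1-KO and 58.96 in Xbp1-KO, and Cyp4a31 averaged 61.3, 3.86, 46.1, 3.497 and 10.2 CPM in the same order. These genes were high in both the pool labelled Tef-KO and the Nr2f2-KO pool. The Cyp4a genes are neighbours of 1 family, and reads that match more than 1 of them were not measured here, so the split of counts among them may be uncertain. Of 10 measured members of the Cyp4 list, 5 were at least 2-fold higher and 0 lower, beside 2.38% and 2.28% of all 6673 genes. The Nr2f2-KO and Xbp1-KO pools each had 4 members higher and 0 lower.

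Other known PPARA targets and fatty acid handling genes were higher together with them. Acot3 and Acot1, acyl-CoA thioesterases, averaged 12.2 and 52.1 CPM, against 0.539 and 8.43 in WT and 3.63 and 30.3 in Nr2f2-KO. The lowest Tef-KO block of Acot3 was at 1.94 CPM and the highest WT block at 1.14 CPM, while for Acot1 these were 12.1 and 19.8 CPM and overlapped. Vnn1, a pantetheinase, averaged 50.99 CPM against 5.71 in WT, 31.7 in Nr2f2-KO, 19.2 in Usf1-KO and 9.03 in Xbp1-KO. Fgf21, a hormone secreted by the liver in fasting, averaged 17.2 CPM against 2.12 in WT and 8.32 to 9.85 in the other 3 pools. Its blocks overlapped, with a lowest Tef-KO block of 0.934 CPM and a highest WT block of 3.69 CPM. Of the 18 measured members of the list of PPARA targets outside oxidation 7 were at least 2-fold higher and 0 lower. The counts were 4 and 0 of 21 for peroxisomal oxidation, and 3 and 0 of 24 for mitochondrial oxidation and ketogenesis. The 3 medians were 0.55, 0.54 and 0.61. Over all 6673 genes 2.38% were higher and 2.28% lower. In the Nr2f2-KO pool the same 3 lists had 7, 2 and 4 members higher and 0 lower, with medians of 0.60, 0.32 and 0.48. Among the mitochondrial genes, Acadvl, an acyl-CoA dehydrogenase, averaged 20.1 CPM against 4.57 in WT and 16.3 in Nr2f2-KO. Cpt1a, which admits fatty acids to mitochondria, averaged 254.04 CPM against 114.8 and 257.6. Ppara itself averaged 68.7 CPM against 65.4 in WT, a log2 ratio of 0.07. Fatty acid synthesis genes had a median of -0.32, with 1 of 15 at least 2-fold lower.

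These genes also varied inside the pool labelled Tef-KO. Across its cells Cyp4a14 followed Cyp4a10 (Spearman's rho 0.82), Cyp4a31 (0.69), Acot1 (0.73) and Vnn1 (0.63), and it ran opposite to Tef (-0.48) and Saa1 (-0.56). Over the WT cells the same 6 values were 0.33, 0.41, 0.22, -0.06, -0.31 and -0.24. Cells share pool and label number bands, so these are descriptions. The first block of Tef-KO label numbers had the lowest Cyp4a14 (92.8 CPM), Acot1 (12.1 CPM) and Fgf21 (0.934 CPM), and the highest Tef (71.7 CPM) and Saa1 (1592 CPM). Without that block the Cyp4a14 log2 ratio was 7.01 and that of Tef 0.90.

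Hsd17b6, a hydroxysteroid dehydrogenase on chr10:127990936-128007611, stood apart from the Cyp4a pattern. It averaged 428 CPM in the pool labelled Tef-KO, 61.6 in WT, 140 in Nr2f2-KO, 41.7 in Usf1-KO and 98.4 in Xbp1-KO, a log2 ratio of 2.77 against WT and 1.60 against the next highest pool. Its 4 Tef-KO blocks (312.2 to 524 CPM) lay above the blocks of all 4 other pools, and 52 cells (41.3%) were above the highest WT cell (435 CPM). The fitted difference was 2.32 (SE 0.44, edgeR unadjusted p = 0.00163, adjusted p = 0.793, 0.614 to 0.929 over the alternatives), and the adjusted p of DESeq2 was 0.0064. Across Tef-KO cells Hsd17b6 followed Cyp2f2, a periportal enzyme (rho 0.63), and ran opposite to the pericentral Cyp2e1 (-0.65), as in WT cells (0.73 and -0.70). It did not follow Cyp4a14 (0.02). In bulk libraries of sorted P60 hepatocytes Hsd17b6 was at 156.5 and 147.4 CPM in the 2 labelled PV, 90.4 and 93.2 in the 2 labelled ML and 6.01 and 6.03 in the 2 labelled CV. Those libraries are of another age and assay.

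Genes typical of periportal hepatocytes were higher more often than lower. Of 30 measured members of the periportal list 9 were at least 2-fold higher and 1 lower (median 0.54). Of 29 of the pericentral list 0 were higher and 4 lower (median -0.27), beside 2.38% higher and 2.28% lower of all 6673 genes. Sds, a serine dehydratase, averaged 98.4 CPM against 22.4 in WT and 101.06 in Nr2f2-KO, Etnppl, a phospholyase, 176.4 against 57.5 and 101.05, and Cyp2f2 1673 against 709 and 1420. On the pericentral side Slc13a3, a dicarboxylate transporter, averaged 6.66 CPM against 24.6 in WT, and Cyp7a1, the rate-limiting enzyme of bile acid synthesis, 34.9 against 78.8. The Nr2f2-KO pool had medians of 0.69 and -0.66 for these 2 lists against the same WT cells. Cells were picked singly, and a difference in which zones were picked was not tested. Of 19 genes of gluconeogenesis and glycolysis 5 were at least 2-fold higher, among them Gapdh (313.04 against 129.6 CPM), Fbp1 (1403 against 654) and Gys2 (150.6 against 68.3), and 1 was lower, Pfkfb3 (4.22 against 18.5).

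**Figure D3:**
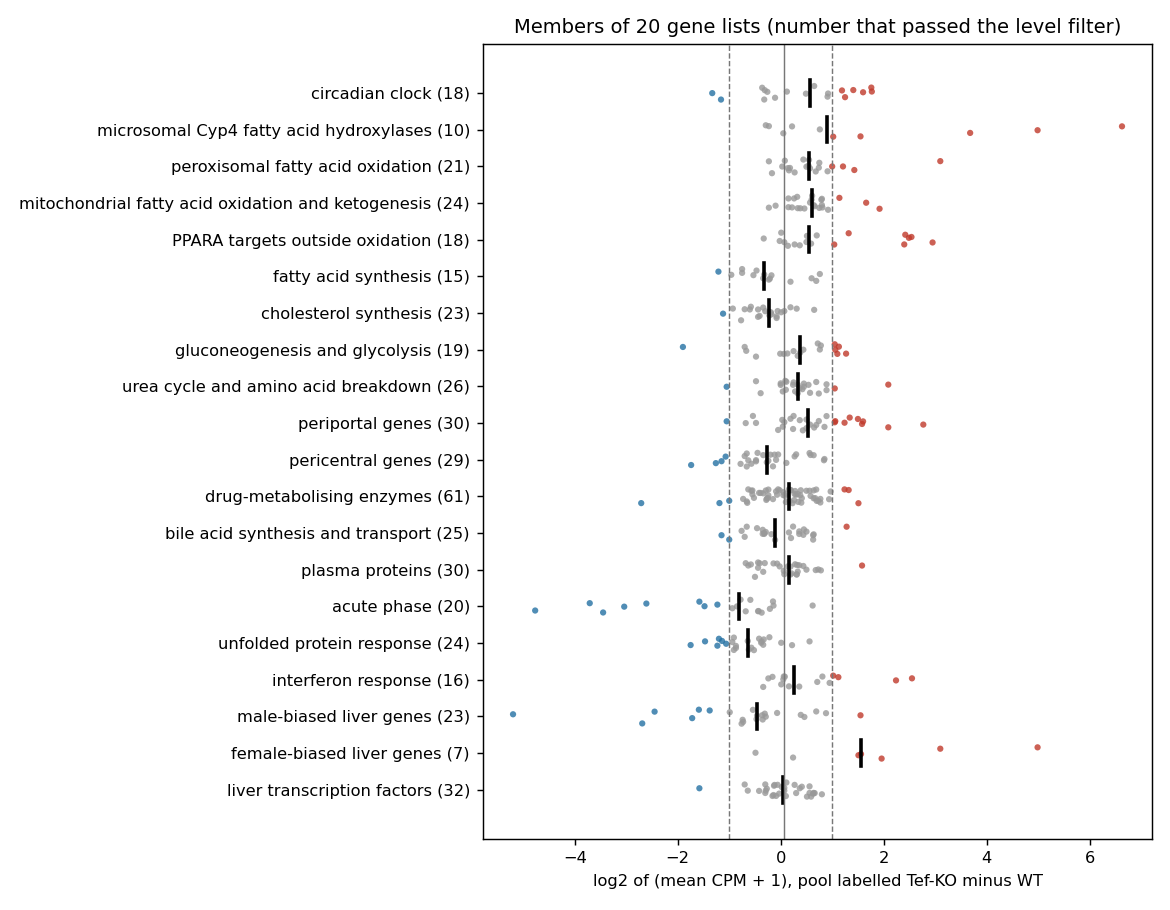
Log2 ratio of the pool labelled Tef-KO against WT for each measured gene (points) of 20 gene lists, with the list median as a bar, dashed lines at 2-fold and a solid line at the median of all genes. Points past 2-fold are red (higher) or blue (lower). Most acute phase genes lie below 0, with a median of -0.82, and most genes of fatty acid oxidation lie above it.

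Serum amyloid and other acute phase genes, secreted by the liver in inflammation, were lower. Saa1 (chr7:46740497-46742980) averaged 672 CPM in the pool labelled Tef-KO, 8791 in WT, 2593 in Nr2f2-KO, 93596 in Usf1-KO and 15815 in Xbp1-KO, a log2 ratio of -3.71 against WT. Saa2 averaged 206.97, 5654, 1487, 96462 and 10814 CPM in the same order. In every Tef-KO cell Saa1 was below the WT median of 5361 CPM. The blocks overlapped, since WT label numbers 42 to 82 averaged 563 CPM of Saa1 and the first Tef-KO block 1592 CPM. Orm2, orosomucoid, averaged 35.4 CPM against 298.7 in WT and 36 in Nr2f2-KO, and Lcn2, an iron-siderophore binding protein, 21 against 132.99 and 34.8. Of the 20 measured acute phase genes 8 were at least 2-fold lower than WT and 0 higher. Over all 6673 genes the shares were 2.28% and 2.38%. Those 8 acute phase genes were below the other 3 pools as well. Of all the genes at least 2-fold lower than WT, 60.5% were below the other 3 pools too, and 12% of all 6673 genes were below all 4. Cebpb, a transcription factor of this response, averaged 14.3 CPM against 44.5 in WT. Crp, named after its value was seen, averaged 604 CPM against 394 in WT. In the edgeR fit Saa1 differed by -5.84 (SE 2.66, adjusted p = 0.793, 0.614 to 0.929 over the alternatives).

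Major urinary proteins, male-biased pheromone carriers under growth hormone, took 5.50% of counts against 8.01% in WT and 4.48% to 8.04% in the other pools. Single members differed far more than the sum. Mup9 averaged 100.7 CPM against 3726 in WT, 597 in Nr2f2-KO, 648 in Usf1-KO and 3916 in Xbp1-KO, a log2 ratio of -5.20. Single WT cells ran from 54.6 to 26081 CPM of Mup9, so this ratio of means does not describe a typical cell. In 96.03% of Tef-KO cells Mup9 was below the WT median. Its Tef-KO blocks ran from 71.8 to 128.4 CPM and lay below all blocks of the other 4 pools, the nearest WT one being 213.8 CPM. Mup12 averaged 639 CPM against 4117, 1559, 2432 and 4868 in the same order. Its fitted difference was -2.38 (SE 0.68, edgeR adjusted p = 0.793, DESeq2 adjusted p = 0.0082). Mup20, named after its value was seen, averaged 7516 CPM against 4075 in WT, in the opposite direction. Many Mup genes are known to be very similar in sequence, and reads that match more than 1 of them were not measured here, so the counts may be uncertain as to the member. Of 23 measured male-biased genes 6 were at least 2-fold lower and 1 higher, beside 2.28% and 2.38% of all 6673 genes. Of 7 female-biased genes 0 were lower and 5 higher, of which 2, Acot3 and Cyp4a10, are also in the fatty acid lists. The Nr2f2-KO pool had 5 male-biased genes lower and 0 higher, and 0 female-biased genes lower and 4 higher. Its list medians were -0.35 and 1.59, against -0.47 and 1.56 in the pool labelled Tef-KO. Of 3 measured sex chromosome genes 0 were at least 2-fold lower and 0 higher in the pool labelled Tef-KO (median -0.21). A difference in the sex of the animals between the pools was not tested. Elovl3, a male-biased fatty acid elongase, averaged 303.9 CPM against 1006 in WT, and Cyp2c69, a female-biased P450, 45.3 against 15.3. Bcl6, a repressor of female-biased genes in male liver, averaged 8.65 CPM against 51.1 in WT and 17.7 to 37.2 in the other pools.

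Dnaic1, a dynein intermediate chain of motile cilia on chr4:41569775-41638158, was low in every block of the pool labelled Tef-KO. It averaged 0.803 CPM in the pool labelled Tef-KO, 12.2 in WT, 19.1 in Nr2f2-KO, 15.3 in Usf1-KO and 21.1 in Xbp1-KO, a log2 ratio of -2.87 against WT. After thinning, 7.94% of Tef-KO cells had a count (3.87% to 14.1%) against 55.5% of WT cells (47.5% to 63.2%). All 4 Tef-KO blocks (0.253 to 1.65 CPM) lay below the blocks of the other 4 pools. The fitted difference was -4.43 (SE 0.43, edgeR unadjusted p = 3.2e-05, adjusted p = 0.271, 0.095 to 0.929 over the alternatives), and the adjusted p of DESeq2 was 5.6e-25. Its annotation overlaps the end of Enho, which lies on the other strand and was also lower, at 16.4 CPM against 48 in WT and 30.7 to 55.5 in the other pools. Enho was named after its value was seen. The 2 annotations overlap only at chr4:41638144-41638158. Whether counting used strand is not given, so reads in that stretch may not be told apart.

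Stress lists did not share a direction. Over all 6673 genes 2.28% were at least 2-fold lower and 2.38% higher. The ATF4 response had 1 of 6 members at least 2-fold lower and 2 higher (median 0.08), the p53 targets 2 of 7 lower and 0 higher (-0.09), and the dissociation and immediate early list 2 of 12 lower and 1 higher (-0.14). Single genes of stress and growth arrest went both ways. Trib3 (log2 ratio 1.83 against WT) and Junb (1.09) were higher, and their blocks are not given here. Ddit4, Cdkn1a and Hspa1b, described next, were low. Ddit4, an inhibitor of mTORC1, averaged 2.46 CPM against 30.2 in WT, 8.20 in Nr2f2-KO, 31.9 in Usf1-KO and 12.1 in Xbp1-KO, with all 4 Tef-KO blocks below those of the other pools. Cdkn1a, the cell cycle inhibitor p21, averaged 4.02 CPM against 21.9, 33.2, 113.8 and 48.2 in the same order, but the WT block of the highest label numbers was at 2.60 CPM. Hspa1b, a heat shock chaperone, averaged 4.43 CPM against 40.0 in WT and 4.93 in Nr2f2-KO. Of 24 measured genes of the unfolded protein response 6 were at least 2-fold lower and 0 higher (median -0.63), among them Creld2 (57.7 against 195.7 CPM) and Manf (160.8 against 370). The Nr2f2-KO pool had 46.7 and 120.3 CPM of these. Moxd1, a monooxygenase-like protein, averaged 0.0170 CPM against 20.6 in WT, but the 2 blocks of lower WT label numbers were near 0 as well and the log2 ratio against them was -0.16. Ly6a, an interferon-responsive surface protein, averaged 1.02 CPM against 45.7, with a first WT block of 0.946 CPM. Interferon response genes had 4 of 16 members at least 2-fold higher and 0 lower, and those 4 were higher still in Nr2f2-KO, as for Ifit3, an antiviral protein, at 10.6 CPM against 0.98 in WT, 25.7 in Nr2f2-KO and 19.8 in Xbp1-KO.

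The lists that hold the bulk of hepatocyte work differed little in the median. Plasma proteins had 0 of 30 at least 2-fold lower and 1 higher (median 0.16), drug-metabolising enzymes 2 and 3 of 61 (0.16), liver transcription factors 1 and 0 of 32 (0.04), and ribosomal proteins 2 and 2 of 80 (0.23). Cholesterol synthesis had 1 and 0 of 23 (-0.22), bile acid genes 1 and 1 of 25 (-0.11), and the urea cycle and amino acid breakdown 1 and 2 of 26 (0.33). The iron, haem and retinoid list had 4 lower and 0 higher of 19 (-0.07). Over all 6673 genes 2.28% were lower and 2.38% higher.

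Differences were partly shared with the other knockout pools, which were set against the same WT cells. Of the lower genes 45 (29.6%) were at least 2-fold lower in the pool labelled Tef-KO and in none of the other 3 knockout pools, and 61, 33 and 13 were also lower in 1, 2 and 3 of them. Of the higher genes the numbers were 67 (42.1%), 65, 22 and 5. Without the Nr2f2-KO pool among the others, 52% of the lower and 79.2% of the higher genes were not shared, and without the Usf1-KO pool 45.4% of the lower ones. The Nr2f2-KO pool shared the most, with 75 lower (49.3%) and 85 higher genes (53.5%), while its own background against WT was 1.64% lower and 2.02% higher of 6694 genes. The Usf1-KO pool had 5.77% lower and 2.08% higher, and the Xbp1-KO pool 0.789% and 0.864%. A gene high or low in the WT cells alone is shared by construction.

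Taking all 4 other pools as the reference leaves fewer genes. At least 2-fold beyond every other pool were 13 genes above (0.195% of 6673) and 15 below (0.225%). Those above were Clec2h, Hsd17b6, Cyp4a14, Dbp, Acot3, Usp2, Cyp2c69, Bhlhe41, Gstt2, Ciart, Cyp2c40, Mfsd2a and Eif4ebp3. Those below were Dnaic1, Saa2, Mup9, Cdkn1a, Saa1, Mpeg1, Ddit4, Mup12, Slc45a3, Mup8, Saa3, Mup2 and Ppp1r3b, beside 2 predicted genes. The log2 ratio of Clec2h against WT was 2.16, and 1.24 without the first block of Tef-KO label numbers. Gstt2, a glutathione transferase, averaged 77.5 CPM against 30.4, 26.2, 15.8 and 20.8 in WT, Nr2f2-KO, Usf1-KO and Xbp1-KO, with its blocks above those of all other pools and a DESeq2 adjusted p of 0.0017 (edgeR adjusted p = 0.793). Mfsd2a, a transporter of lysophosphatidylcholine, averaged 51.2 CPM against 3.12, 23.6, 3.56 and 2.58. Eif4ebp3, an inhibitor of translation initiation, averaged 101.08 CPM against 12.2, 48.8, 22.05 and 44.8. Mpeg1, a pore-forming protein of macrophages, averaged 8.88 CPM against 28.1, 26.9, 52.4 and 31.7. By blocks, 12 of the higher genes (7.55%) lay above every block of the other pools (0.854% of all genes), and 16 of the lower genes (10.5%) lay below (0.45% of all). These 2 counts and the names among the 28 genes were taken after the values were seen. WT blocks were among those compared, and the ratio against WT chose the higher and lower genes. A larger share than among all genes therefore follows in part from that choice.

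**Figure D4:**
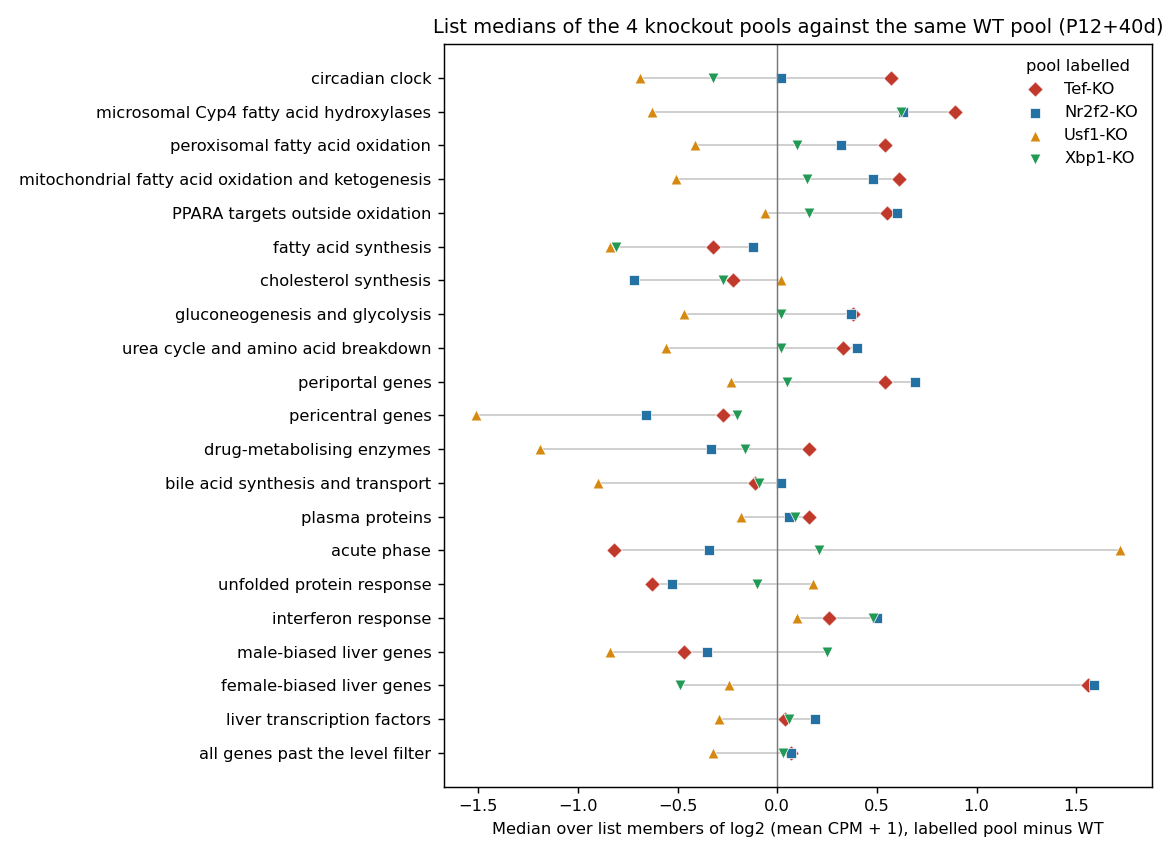
Median log2 ratio against the same WT cells for gene lists in the pool labelled Tef-KO and in the Nr2f2-KO, Usf1-KO and Xbp1-KO pools. The clock list stands at 0.57, 0.02, -0.69 and -0.32, and the acute phase list at -0.82, -0.34, 1.72 and 0.21.

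Readouts that the comparison did not use are the ages of normal maturation and the sorted P60 cells. They come from mice with Alb-Cre and a Rosa-tdTomato reporter and, for the ages, from mSTRT-seq, which reads transcript ends, so levels cannot be set against those above. Between P12 and P30, 27% of the lower genes were at least 2-fold higher at P30, against 8.53% of all 6673, and 10.5% lower, against 2.22%. Of the higher genes 23.3% were higher at P30 and 6.92% lower. Tef averaged 23.9 CPM at P12 and 56.96 at P30, and Saa1 56.1 and 1995. Mfsd2a averaged 0.102 and 111.1 CPM and Dnaic1, in the other direction, 78.4 and 3.05. Cyp4a14 peaked at 1207 CPM at P0, against 12.7 at E19.5, and stood at 190.7 CPM at P12 and 386 at P30. In the sorted cells, 19.7% of the lower genes were at least 2-fold higher in CV than in PV (all genes 4.11%) and 8.55% the reverse (1.65%), and of the higher genes 10.1% and 17%. Cyp4a10 was higher in CV, at 821 and 883 CPM against 198.9 and 132.03 in PV.

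**Figure D5:**
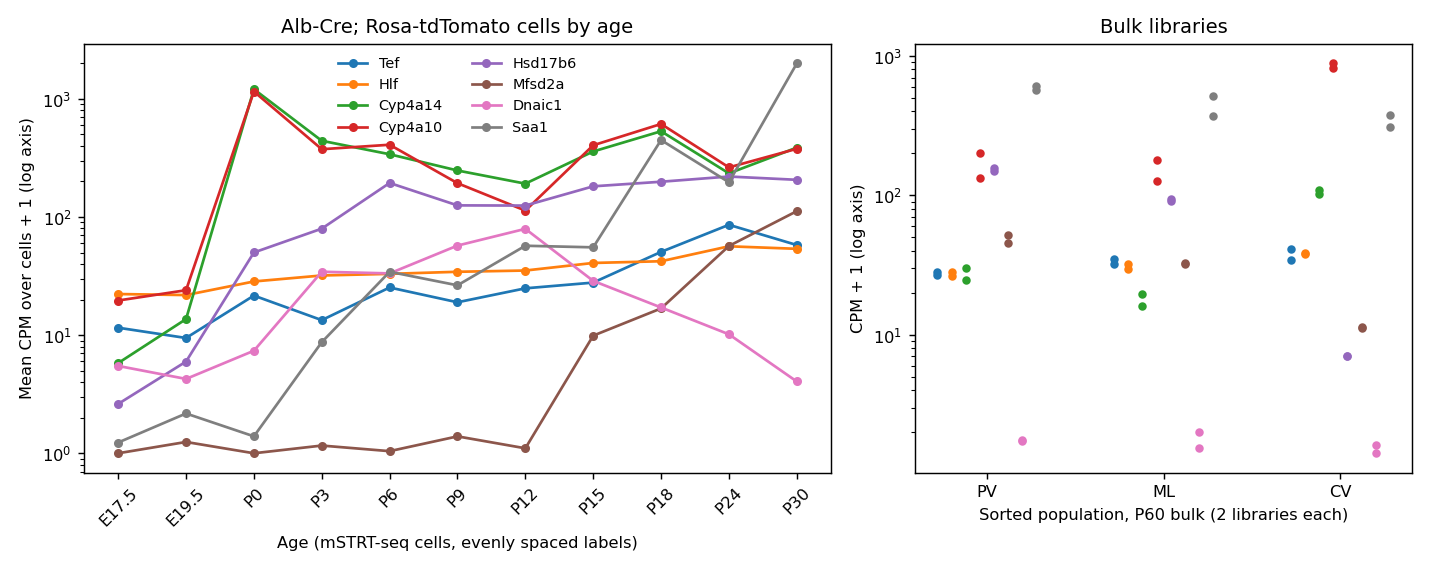
Mean CPM + 1 on a log axis of 8 genes in mSTRT-seq cells by age from E17.5 to P30, and in the 2 libraries each of sorted P60 cells labelled PV, ML and CV. Cyp4a14 is highest at P0 with 1207 CPM, and Hsd17b6 is lower in CV than in PV.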

How the data were processed

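Poly(A) RNA of single hepatocytes was measured with Smart-seq3. The deposited table holds whole-number counts per gene symbol that the authors made, with 40824 genes and 92 ERCC entries, which were left out. The submitters' processing notes name TopHat2 2.1.0, HISAT2 2.1.0, featureCounts 1.5.3 and 2.0.0, HTSeq 0.6.0, UMI-tools 0.5.0, Trimmomatic 0.39, SAMtools 1.3.1, TopHat and Bowtie2, and the builds GRCm38 and mm10. The sources used here do not say which tool counted this table, whether strand was used, or whether counts are reads or molecules. Exact 95% Poisson intervals cover counting error only, and Clopper-Pearson intervals take cells as independent draws. Neither covers differences between animals or preparations.

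Samples were grouped by treatment and age label: 126 cells Tef-KO, 164 WT, 165 Nr2f2-KO, 63 Usf1-KO and 207 Xbp1-KO. The main comparison gave 152 genes at least 2-fold lower and 159 higher. With Python 3.11.15, pandas 2.3.3, numpy 2.4.6 and SciPy 1.17.1, each cell was scaled to CPM and pool means compared on log2(CPM + 1), for genes with at least 10 CPM and 25% of cells in the higher pool. Shares of cells used cells thinned to 200000 counts, which all 1226 had. Counts summed per pool were fitted with edgeR 4.0.16 (R 4.3.3), the pool labelled Tef-KO against the 4 others, with DESeq2 1.42.0 as an alternative. On simulated counts for the same comparison, of 50 genes in each class this fit recovered 34 lowered 4-fold and 46 raised 4-fold, but 1 lowered and 3 raised 2-fold, with 9 false calls. The simulated pools shared 1 mean per gene apart from these changes, while the real other pools are WT and 3 different knockouts. Recovery in the data can therefore be lower and was not measured. Coordinates are from GENCODE M21. Of the 34 genes named by the main rules, 8 overlap another annotated gene.

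Named were Tef, Dbp, Hlf, Nfil3 and Cyp4a14, the 15 genes with the largest log2 ratio in each direction that also lay outside the range of the other pools, edgeR calls, and up to 4 genes per list. Members, the 39 lists and the rule were chosen with earlier results of these data known. Alternatives were scaling, pseudocount, level minimum, thinning, fold, pools left out and label numbers. Of the mSTRT-seq columns, 526 were not used.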

Additional observations from a re-analysis of the deposited data

How the results depend on the processing

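The share of genes at least 2-fold lower ranged from 2.28% to 2.68% and of those higher from 1.99% to 2.73% over other scalings, pseudocounts and level minimums. With TMM factors 42.7% of the genes past 2-fold were higher, against 51.1% as reported. Of the genes 2-fold lower in the pool labelled Tef-KO, 8.55% were 2-fold lower in 0 of the other knockout pools when 1.5-fold in another pool counted as shared, 45.4% without Usf1-KO and 52% without Nr2f2-KO (29.6% as reported). Of the higher genes the shares were 10.7% with 1.5-fold and 79.2% without Nr2f2-KO (42.1% as reported). The lower shares at 1.5-fold follow from the looser rule. DESeq2 called 60 lower and 8 higher genes where edgeR called 0 and 0, and leaving out each other pool in turn gave 0 to 0 edgeR calls. Under the scalings, pseudocounts and minimums, 0 of the log2 values of the 34 main named genes changed sign. In 3 settings by label number, added after the data were seen, 1 did: Hlf turned to 0.01 against WT cells of the 2 blocks of lower label numbers. Moxd1 was -0.16 there. Tef (0.61), Dbp (0.83) and Nfil3 (-0.70) were under 2-fold against the 2 blocks of higher numbers, as was Tef (0.90) without the first block of Tef-KO numbers. Of the lower genes 80.3% to 88.8%, and of the higher genes 74.2% to 86.2%, stayed past 2-fold in these settings. No paired analysis was possible because no label numbers replicates across the pools, each of which is 1 sample. The number of cells limits genes near 0, where a share rests on few counts. The cause of the other changes was not tested.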
